A study of Caenorhabditis elegans with 12 samples.

Results

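C-type lectin genes of Caenorhabditis elegans are described here in wild type N2 worms and in wrn-1(gk99) worms, with and without vitamin C. The members were the genes whose deposited symbol begins with clec- and whose normalized count, averaged over the 12 libraries, was at least 10. The deposited table held 265 such symbols, of which 31 had no read in any library and 119 had reads but a mean under 10. The remaining 115 genes were the members, of 14352 genes with a mean of at least 10 in the whole table. A normalized count is the number of reads counted on a gene divided by a scaling factor of its library. The members nearest the minimum from above were clec-142, clec-32 and clec-35, each with a mean of 10.7, and those nearest from below were clec-172 with 8.90, clec-201 with 9.11 and clec-139 with 9.53. These 6 genes are named here because of their values.

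C-type lectin-like domains are protein folds, many of which bind sugars in the presence of calcium. In vertebrates, proteins of this family include receptors that recognise the surface of microbes. The family is greatly expanded in nematodes. Many of the worm genes encode small proteins with a signal peptide that are made in the intestine, the organ that meets ingested bacteria, and sets of them change when worms are fed different pathogens. Part of this response runs through the PMK-1 p38 kinase cascade (TIR-1, NSY-1, SEK-1, PMK-1 and the transcription factor ATF-7) and through the intestinal GATA factor ELT-2. Most members have no described role of their own, so a role is given below only for the few that have been studied in infection.

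The 4 groups were untreated N2, N2 grown with vitamin C, untreated wrn-1(gk99) and wrn-1(gk99) grown with vitamin C, with 3 libraries each. Vitamin C was 10 mM sodium ascorbate in the plates from the L1 larva on, worms were grown at 25°C, and whole worms were collected when they reached the L4 larval stage, which was judged by vulva and gonad rather than by hours. The wrn-1(gk99) allele is a deletion in the worm gene for the Werner syndrome helicase, in a strain that had been out-crossed to N2. It is a single allele, so a difference between the strains is a difference between these strains. All groups were fed and staged in the same way, and none was exposed to a pathogen on purpose as far as the labels say. In whole worms, fewer cells of a type and less RNA per cell cannot be told apart.

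The libraries held from 13446257 to 34234211 reads on genes, with a median of 20136361. The normalized count of wrn-1 was 516, 499 and 502 in untreated N2 and 854, 789 and 699.9 in untreated wrn-1(gk99). It was 407, 380.3 and 614 in vitamin C treated N2 and 835, 648 and 671 in vitamin C treated wrn-1(gk99). A count over the whole gene does not show whether the deleted stretch was read, so it does not check the strain. The library labelled vitamin C treated N2 replicate 3 stood apart from its group. Over the 115 members, the correlation of its log2 values was 0.908 and 0.907 with the other libraries of its group and 0.989 to 0.995 with the 3 libraries of the treated mutant. For 99 of the 115 members, its log2 value was nearer to the mean of the treated mutant than to the mean of the other treated N2 libraries. Counts of called members are therefore given with and without it. It also entered the pooled spread of all comparisons, and without it the tests of the other comparisons had smaller errors.

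**Figure D1:**
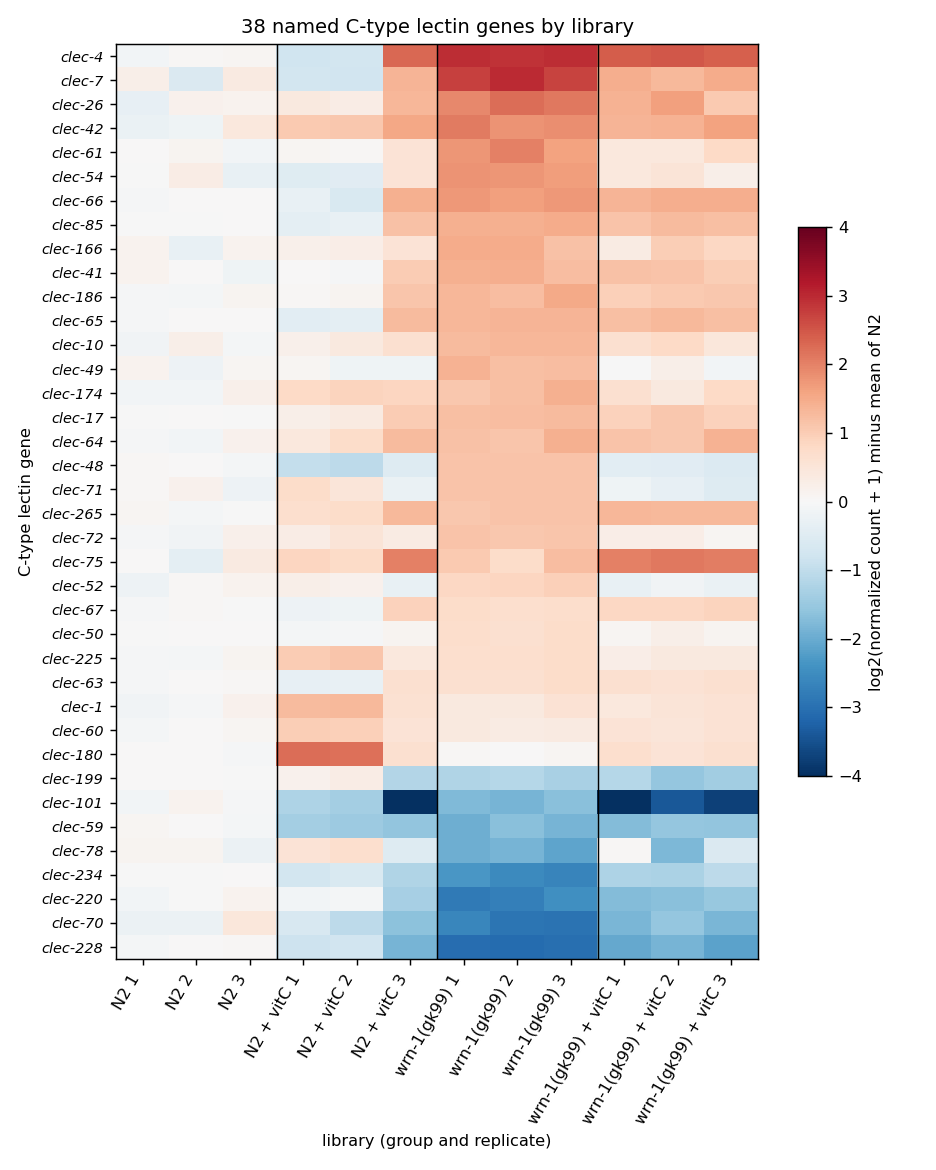
The 38 named members (rows) in the 12 libraries (columns), coloured by log2(normalized count + 1) minus the mean of untreated N2, with rows ordered by the difference between untreated wrn-1(gk99) and untreated N2. The third library of vitamin C treated N2 differs in colour from the other libraries of its group, and for 35 of the 38 genes it was nearer to the treated mutant.

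Member levels covered a wide range. The mean normalized count over 12 libraries ran from 10.7 to 42217, with a median of 97.0, and 15 members had a mean above 1000 while 40 had a mean under 50. The highest was clec-63 (F35C5.6), with 31405, 32639 and 33605 in untreated N2. It alone made up 42.2% ± 0.645 of the summed member counts in untreated N2 (SD, n = 3). Per kilobase of annotated exon, the order of mean normalized counts began with clec-63 at 32550, followed by clec-50 at 4843, clec-1 at 4553, clec-180 at 2793 and clec-65 at 2366. By counts without regard to length the next after clec-63 were clec-180, clec-41, clec-50 and clec-1.

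The summed level of the family was higher in the mutant than in untreated N2. All 115 members together had 77104 ± 1445 normalized counts in untreated N2 and 115560 ± 3162 in the untreated mutant (SD, n = 3), which was 0.355% ± 0.0024 and 0.597% ± 0.0106 of all normalized counts. In vitamin C treated wrn-1(gk99) the sum was 108050 ± 1462. Without clec-63 the sums were 44550 ± 344 in untreated N2, 63650 ± 840.4 in the untreated mutant and 58180 ± 113 in the treated mutant. The 3 libraries of each mutant group lay above the 3 libraries of untreated N2. In vitamin C treated N2 the sum was 87690 to 109900, and the highest value belonged to the library that stood apart. Without clec-63 the sums there were 61740, 61610 and 58939, all above untreated N2, and the lowest belonged to that library. In replicates 1 and 2 most of this rise was in clec-180, with 21064 and 20405 against 4330 to 4518 in untreated N2.

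In untreated worms, comparing wrn-1(gk99) with N2 asks what the loss of the helicase goes with at the L4 stage. In wrn-1(gk99), 20 of the 115 members were called higher and 6 lower. A member was called when limma's adjusted p was under 0.01, one group mean was at least 2 times the other, and the higher of them exceeded the read minimum that the study set for its own lists. By the same rule 4.24% of all 14352 genes were called higher and 6.57% lower. The median log2 difference was 0.53 over the members and 0.01 over all genes tested. The 3 mutant libraries lay above the 3 N2 libraries for 67 members and below them for 30, whereas among all genes these shares were 38.2% above and 37.6% below. An adjusted p under 0.01, whatever the size of the change, was reached by 44 members in the higher and 22 in the lower direction. Of all 14352 genes, 2922 reached it in the higher and 3304 in the lower direction.

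**Figure D2:**
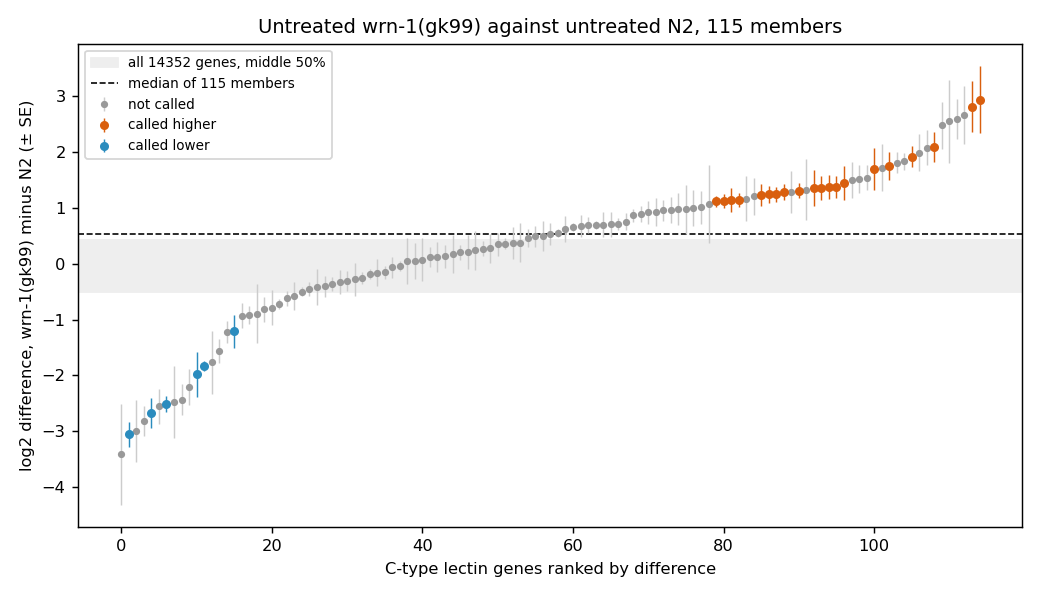
Log2 difference between untreated wrn-1(gk99) and untreated N2 for each of the 115 members, in rank order, with the standard error of limma as bars, called members in colour and the middle 50% of all 14352 genes as a grey band. The dashed line marks the median of the members at 0.53, and the called members run from -3.05 (clec-228) to 2.93 (clec-4).

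The called member with the largest ratio was clec-4 (Y38E10A.5), which has been studied in infection with Bacillus thuringiensis. Its normalized counts were 150.5, 169.7 and 172 in N2 and 1269.8, 1219 and 1283 in wrn-1(gk99). The ratio of means was 7.67 and the log2 difference 2.93 (SE 0.60, adjusted p = 0.0015, limma). Every mutant library was far above every N2 library. The second among the called members was clec-7 (F10G2.3), with 28.2, 15.9 and 30.9 in N2 and 167, 199 and 161 in the mutant. It rested on few reads in N2, and its ratio was 7.03 (log2 difference 2.81, SE 0.46, adjusted p = 0.00034, limma).

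The next 3 called members by ratio had low levels in N2. Uncalled members with still fewer reads, such as clec-25, clec-33 and clec-43, had log2 differences from 2.47 to 2.66. The counts of clec-26 (T20B3.12) were 28.2, 39.8 and 39.4 in N2 and 138, 172 and 155 in the mutant, a ratio of 4.32. Those of clec-42 (F16H6.1), which has been studied with clec-4 and clec-41 in infection with Bacillus thuringiensis, were 65.8, 70.3 and 108 in N2 and 341, 280.2 and 288 in the mutant, a ratio of 3.73. Those of clec-54 (F08H9.8) were 56.4, 70.3 and 45.8 in N2 and 199, 194 and 183 in the mutant, a ratio of 3.34. The groups did not overlap for any of the 3, and the adjusted p-values of limma ran from 7.4e-06 for clec-42 to 0.00013 for clec-54.

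The other 15 members that rose had ratios between 2.16 (clec-72) and 3.24 (clec-66). Among them were abundant genes: clec-41 (B0365.6) averaged 3091 ± 324 in N2 against 7986 ± 632 in wrn-1(gk99), and clec-65 (F35C5.8) had 1529 ± 32.4 and 3903 ± 34.2 (SD, n = 3). The remaining ones were clec-10, clec-17, clec-48, clec-49, clec-64, clec-71, clec-85, clec-166, clec-174, clec-186 and clec-265. The mean of clec-85 (Y54G2A.6), which depends on PMK-1 in worms fed Pseudomonas aeruginosa, went from 1039.8 ± 17.2 to 2820.0 ± 71.4, but 27.7% of its exon bases are also annotated to Y54G2A.40 on the same strand, and how such reads were assigned is not known. It was the only named member with more than 10% of its exon bases shared with another gene.

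The 6 members that fell included the largest difference of all called members. The counts of clec-228 (H02K04.2) were 1471, 1571 and 1611 in N2 and 185, 183 and 191 in the mutant, and the N2 mean was 8.32 times the mutant mean (log2 difference -3.05, SE 0.22, adjusted p = 6.6e-07, limma). Those of clec-234 (F26D2.12) were 477, 472 and 486 in N2 and 94.2, 80.2 and 76.5 in the mutant, with an N2 mean 5.72 times the mutant mean. In both genes the 3 libraries of each group were close together.

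The gene clec-220 (D1054.7), which the WBcel235 annotation lists as a pseudogene, had 203, 216 and 239.9 in N2 and 29.9, 32.4 and 38.8 in the mutant. The counts of clec-78 (F47C12.2) were 1515, 1534 and 1208 in N2 and 362, 385 and 326 in the mutant. Those of clec-59 (ZK666.5) were 1413, 1347 and 1279 in N2 and 346, 418 and 367 in the mutant. All 3 separated the strains without overlap, and the N2 means were 6.52, 3.97 and 3.57 times the mutant means. The sixth was clec-199, with 276 ± 2.75 in N2 and 119 ± 7.12 in the mutant (SD, n = 3). A further gene, clec-101 (F15D3.2), had 259 ± 22.9 and 75.6 ± 4.66 but missed the threshold (adjusted p = 0.019, limma), and was called without the library that stood apart (adjusted p = 9.9e-08), as was clec-209, which had not been named otherwise (155 ± 19 in N2 and 380.2 ± 52.3 in the mutant). All 26 calls were also made without that library, where 4.34% of all genes were called higher and 6.67% lower. The calls of clec-65 and clec-199 were lost when any 1 of the 6 libraries compared was left out. That of clec-4 was absent with DESeq2 only because DESeq2 gave no adjusted p for it. In the other alternatives its adjusted p was at most 0.007 (limma or edgeR).

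Members whose means did not exceed this minimum in either strain were not called by rule. They numbered 57, and 21 of them passed the other criteria, 12 in the higher and 9 in the lower direction, with log2 differences from -3.41 to 2.66. Among the lowered ones was clec-70 (Y46C8AL.3), with 83.3, 83.5 and 135 in N2 and 15.2, 12.1 and 11.9 in the mutant. Among the raised ones was clec-61 (ZK666.7), with 37.6, 39.8 and 34.1 in N2 and 129, 155 and 116 in the mutant. The fold change of such genes is the least precise, since it rests on few reads.

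A list of 14 C-type lectin genes known from work on infection was also examined. It was put together with earlier results of these data known, so its counts are a description. The mean of clec-39 was under the minimum of 10, so it was no member, and of the 13 genes tested 9 were called higher in the mutant and 0 lower by limma, with a median log2 difference of 1.37. At an unadjusted p under 0.05 the counts were 12 higher and 1 lower, and edgeR called 9 higher and DESeq2 8 higher, with 0 lower in each. DESeq2 gave no adjusted p for clec-4 in this comparison. The 9 were clec-4, clec-7, clec-41, clec-42, clec-49, clec-65, clec-66, clec-71 and clec-85. The other 4 were clec-60, a gene induced by Staphylococcus aureus (752 ± 39.9 in N2 and 961 ± 15.3 in the mutant), clec-67 (933 ± 30.8 and 1524 ± 25.1), and clec-61 and clec-70 with the low counts given above (SD, n = 3). Hence clec-70 was the single gene of the list with a negative difference, and it lies next to clec-71 in the genome.

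Genes that act upstream of this response were taken as a list of 30 regulators of worm immunity. Between untreated wrn-1(gk99) and N2, 0 of the 30 were called by limma, edgeR or DESeq2, while at an unadjusted p under 0.05 by limma 10 were lower and 3 higher. Of all 14352 genes, 4582 were lower and 4482 higher at that unadjusted p, and 6226 had an adjusted p under 0.01. Among the 30 regulators, an adjusted p under 0.01 was reached by 4, all of them lower in the mutant. These were elt-2 (log2 difference -0.71), daf-16 (-0.64), sek-1 (-0.38) and tir-1 (-0.28). The median log2 difference of the 30 genes was -0.13. For pmk-1 the means were 682 in N2 and 623 in the mutant, with an adjusted p of 0.11.

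Among other genes that respond to infection, the changes went in both directions. The list held 38 genes of the irg, dod, thn and spp families, of which 28 were tested, 3 were called higher and 5 lower. Raised were dod-22 (ratio 2.21), dod-24 (3.97) and spp-23 (2.47), and lowered were irg-1 (0.450), irg-2 (0.335), thn-2 (0.176), spp-15 (0.475) and spp-20 (0.361). The median log2 difference was 0.23. The members of the spp family encode saposin-like proteins, several of which kill bacteria, and irg genes are named for their response to infection.

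Markers of the intestine had higher sums in the mutant groups than in untreated N2, as the members did. In vitamin C treated N2 replicates 1 and 2 the marker sum was below untreated N2, while the member sums, 87687 and 88321, were above it. Of these member sums, clec-180 alone held 21064 and 20405, against 4330 to 4518 in untreated N2, so their excess rested on that gene. The summed normalized counts of 11 intestinal genes were 42427 to 43647 in untreated N2, 85363 to 87784 in untreated wrn-1(gk99), 55561 to 60134 in the treated mutant, and 38608, 39469 and 55014 in the libraries of vitamin C treated N2, none of them at 0. Of the 11 genes, 3 were called higher in untreated wrn-1(gk99), namely the proteases cpr-1 (ratio 5.37) and asp-1 (2.07) and the intermediate filament gene ifb-2 (3.58), and the ferritin gene ftn-1 was called lower (0.297). Their median log2 difference was 0.75, while that of elt-2 was -0.71. The part of this difference in the member results was not tested.

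Markers of adults and sperm were low, and those of males were mixed. Moulting genes had a positive median difference in the untreated mutant, but their sum, of which sqt-3 was the largest part, was not higher there. Yolk protein genes and the adult cuticle collagen col-19 summed to 33.1 to 76.8 normalized counts, and the sperm list to 260.5 to 376.6, with 5 of its 46 genes at 0 in every library. Of 5 male genes, lov-1, pkd-2 and her-1 were at most 10.2 in every library, while mab-3 had 26.0 to 85.8 and tra-1 674 to 1317. The male list summed to 725 to 1355. For 12 moulting genes, the sums were 101600 to 103760 in untreated N2 and 96885 to 101760 in untreated wrn-1(gk99), with mlt-10 (ratio 2.90) and nas-37 (2.03) called higher. Of these sums, sqt-3 alone held 63719 to 67316 in untreated N2 and 40143 to 40877 in untreated wrn-1(gk99). Lower sqt-3 thus offset higher counts of other moulting genes in the sum. The median log2 difference of the 12 genes was 0.68, against 0.53 for the members, and 8 of them had a positive difference. The part of moulting in the member results was not tested.

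Many members are neighbours. By the order of genes in the WBcel235 annotation, 64 of the members lie in 19 clusters in which at most 3 other protein-coding genes separate a member from the next, and 7 of these clusters have 3 or more members. The family is unevenly spread over the chromosomes: 42 members are on chromosome V, 31 on IV and 23 on II, against 9 on I, 6 on III and 3 on X. Among the 64 clustered members 14 were called higher and 3 lower, with a median log2 difference of 0.87, and among the other 51 members 6 were called higher and 3 lower, with a median of 0.05. This comparison of groups of genes was not tested. Reads from near-identical neighbours may be split or lost in counting, which the sources used here do not describe.

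**Figure D3:**
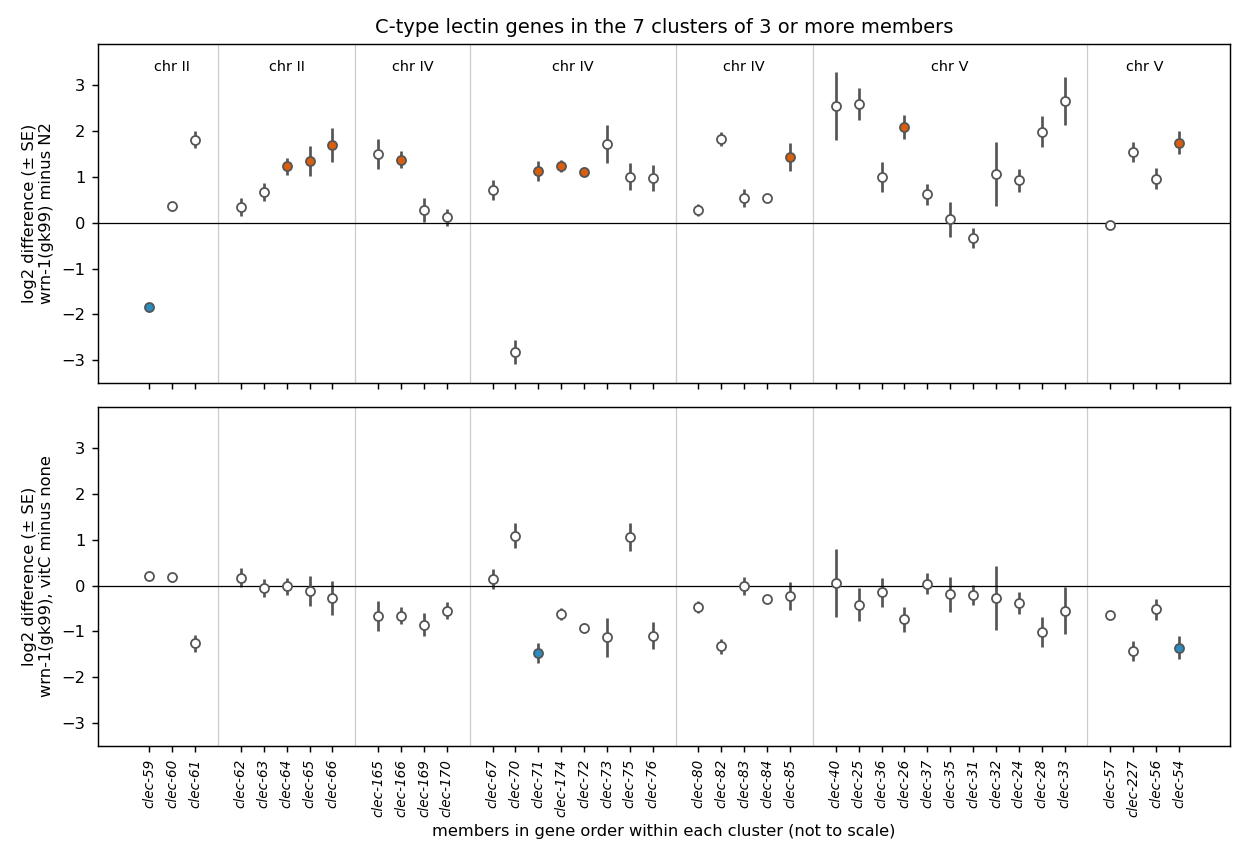
Log2 differences of the members in the 7 clusters of 3 or more, in gene order, for untreated wrn-1(gk99) against N2 (top) and for vitamin C in wrn-1(gk99) (bottom), with limma standard errors as bars and called members filled. In the top panel clec-59 and clec-70 lie at -1.84 and -2.82, while their nearest neighbours in the clusters lie at 0.35 (clec-60) and at 0.71 and 1.13 (clec-67 and clec-71).

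On chromosome II, clec-62, clec-63, clec-64, clec-65 and clec-66 follow each other. All 5 had positive differences between untreated wrn-1(gk99) and N2, from 0.35 to 1.70, and clec-64, clec-65 and clec-66 were called. The counts of clec-63, the most abundant member, were 50868, 50285 and 54579 in wrn-1(gk99), above every N2 library, but the ratio was 1.59 and the adjusted p 0.013 (limma). A second cluster on chromosome II had members in opposite directions, since clec-59 fell to a ratio of 0.280 while clec-60 had a ratio of 1.28 and clec-61 a ratio of 3.58.

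On chromosome IV, a cluster of 8 members holds clec-67, clec-70, clec-71, clec-174, clec-72, clec-73, clec-75 and clec-76. Here 7 had positive differences, clec-71, clec-174 and clec-72 were called higher, and clec-70 was the exception. The cluster of clec-80, clec-82, clec-83, clec-84 and clec-85 had 5 positive differences, from 0.27 to 1.83. The largest cluster, on chromosome V, has 11 members (clec-40, clec-25, clec-36, clec-26, clec-37, clec-35, clec-31, clec-32, clec-24, clec-28 and clec-33), of which 10 had positive differences and clec-26 was called.

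Vitamin C in wrn-1(gk99) worms was compared next, to ask which members the treatment moves in the mutant. This comparison shares its untreated mutant libraries with the previous one, so opposite signs in the 2 comparisons are partly built in, and the values are given side by side. Of the 115 members, 5 were lower and 2 higher with vitamin C, where 0.481% of all genes were called lower and 1.32% higher. The median log2 difference was -0.19 over the members and -0.01 over all genes. Without the library that stood apart, which is not in either group but adds to the pooled spread, 6 were lower and 4 higher, where 0.996% and 1.47% of all genes were.

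Among the called members, the largest drop with vitamin C was in clec-48 (C14A6.1). Its normalized counts were 774, 761 and 776 in untreated wrn-1(gk99) and 261, 253 and 239 with vitamin C, a ratio of 0.326 (log2 difference -1.61, SE 0.12, adjusted p = 6.1e-06, limma). In untreated N2 they were 360.0, 353 and 332. The treated mutant was therefore below untreated N2 in every library, although that difference, with a ratio of 0.722, was not called. A larger log2 difference with vitamin C, of -1.98, was that of clec-101, whose adjusted p was 0.029 (limma) and whose mean in the untreated mutant was 75.6.

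For the other 4 lowered members the counts of untreated N2 stood nearer to the treated than to the untreated mutant. For clec-71 (Y46C8AL.4) the counts were 282, 281 and 284 without and 114, 101.1 and 89.0 with vitamin C, against 132, 143 and 112 in untreated N2. For clec-54 they were 199, 194 and 183 without and 76.7, 81.7 and 66.1 with vitamin C, against 56.4, 70.3 and 45.8 in untreated N2. The ratios were 0.359 and 0.389, and no treated library overlapped an untreated mutant library. The call of clec-54 was lost when any 1 of these 6 mutant libraries was left out.

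For clec-49 (W04E12.6), which is needed for full resistance to Serratia marcescens, the counts were 322, 280.2 and 289 without and 121, 144 and 112 with vitamin C, against 133, 105 and 128 in untreated N2. For clec-52 (B0218.8) they were 393, 401 and 432 without and 179, 199 and 185 with vitamin C, against 193, 228.1 and 244 in untreated N2. The ratios of treated to untreated mutant were 0.422 and 0.460. Between the treated mutant and untreated N2, the log2 differences of clec-48, clec-71, clec-54, clec-49 and clec-52 were -0.47, -0.34, 0.39, 0.04 and -0.23, and none was called.

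Both members called higher with vitamin C in wrn-1(gk99) were among those lower in the untreated mutant. The counts of clec-234 were 94.2, 80.2 and 76.5 without and 202, 199 and 229.8 with vitamin C, a ratio of 2.51 (log2 difference 1.32, SE 0.15, adjusted p = 8.6e-05, limma). Those of clec-228 were 185, 183 and 191 without and 375, 424 and 354 with vitamin C, a ratio of 2.06, with an adjusted p of 0.007 (limma), and this call was lost in 10 of the 26 alternatives, which included leaving out any 1 of the untreated N2 or the mutant libraries. Both stayed below untreated N2, where the lowest counts were 472 and 1471.

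Without the library that stood apart, clec-7, clec-75 and clec-78 were called as well. The counts of clec-7 were 67, 60.9 and 69.5 with vitamin C, against 167, 199 and 161 without. Those of clec-75 (Y46C8AL.9) were 159, 168 and 162 with and 80.1, 64.8 and 90.5 without vitamin C. Those of clec-78 were 1472, 402 and 954 with vitamin C, so its treated libraries differed widely among themselves.

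**Figure D4:**
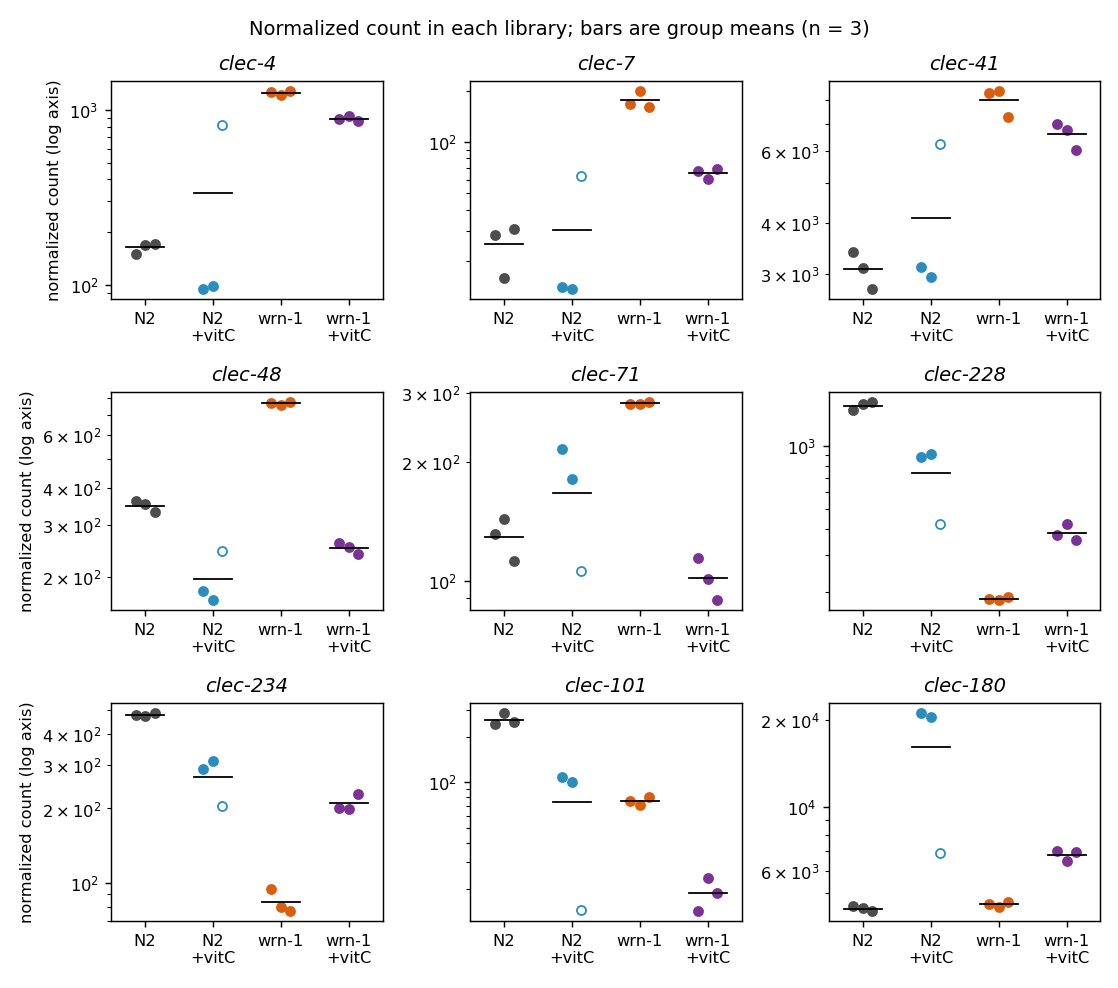
Normalized counts of 9 members in each library on log axes that differ between panels, grouped by strain and vitamin C, with group means as horizontal bars and the library labelled vitamin C treated N2 replicate 3 as an open circle. In clec-48 and clec-71 the treated mutant lies far below the untreated mutant, in clec-228 and clec-234 it lies above it, and in every panel the open circle is apart from the filled circles of its group.

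Among the other lists, vitamin C in wrn-1(gk99) lowered 1 of 11 intestinal genes (ifb-2, ratio 0.478), and the summed level of that list fell as given above. Of the infection genes outside the family, spp-13 was called higher (2.05) and dod-22 lower (0.489). Of the moulting genes, mlt-10 (0.429) and nas-36 (0.469) were called lower. The median log2 differences were -0.54 for the intestinal and -0.50 for the moulting genes, against -0.19 for the members. Their part in the member results was not tested.

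In N2, vitamin C changed fewer members, and the result leans on the library that stood apart. With all libraries, 3 members were higher and 2 lower, where 1.16% and 1.34% of all genes were called. The median log2 difference was -0.005 over the members and -0.03 over all genes, and it turned positive with other scalings of the libraries. Without that library, 4 were higher and 4 lower, where 2.59% and 2.01% of all genes were, and the median was -0.16. Leaving out any 1 of the 3 untreated N2 libraries instead gave 3 calls in all, a fit of these 2 groups alone gave 1, and scaling to equal totals gave 4 higher and 1 lower.

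The member that rose most with vitamin C in N2 was clec-180 (F32E10.3). Its counts were 4518, 4453 and 4330.4 without and 21064, 20405 and 6881 with vitamin C, a ratio of 3.63 (log2 difference 1.69, SE 0.32, adjusted p = 0.0025, limma). Without the third treated library the log2 difference was 2.23. The call was lost in 5 of the 26 alternatives, namely without any 1 of the untreated N2 libraries, without treated N2 replicate 2 and in the fit of these 2 groups alone. In the mutant the counts were 4603, 4483 and 4670.3 without and 7042, 6464 and 6940.2 with vitamin C. The value of 6881 thus lay among those of the treated mutant.

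A similar pattern was seen in clec-1 (F25B4.9), with 2155, 2278 and 2684 without and 5694, 5785 and 3614 with vitamin C in N2, and 3078 to 3558 in the 6 mutant libraries. The third raised member was clec-42, with 65.8, 70.3 and 108 without and 165, 168 and 232 with vitamin C, a ratio of 2.32. The log2 difference of clec-1 was 1.06 with and 1.28 without the library that stood apart, and that of clec-42 was 1.22 and 1.06. All 3 genes were called in both cases. In the fit of these 2 groups alone none of the 3 was called, and clec-1 was not called without treated N2 replicate 1 or 2.

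Both lowered members were also lower in the untreated mutant. The 2 comparisons share the untreated N2 libraries, so equal signs in them are partly built in. The counts of clec-59 were 525, 488 and 455 with vitamin C in N2, against 1413, 1347 and 1279 without, a ratio of 0.363, and this call did not depend on the third library (log2 difference -1.46 with and -1.41 without it). Those of clec-228 were 881, 909 and 424, against 1471, 1571 and 1611 without. The log2 difference of clec-228 was -1.15 with the third library and -0.79 without it, and only the first was called. That call was also lost without any 1 of the untreated N2 libraries, with equal totals and in the fit of these 2 groups alone.

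Without that library, clec-19, clec-48 and clec-101 were called lower and clec-225 higher. The counts of clec-101 were 108, 100.3 and 14.5 with vitamin C, against 242, 285 and 251 without. Those of clec-48 were 180.2, 167 and 245, against 360.0, 353 and 332. Those of clec-225 (B0365.5), the neighbour of clec-41, were 947, 1005 and 627, against 457, 444 and 503. For clec-19, named here only because of this call, they were 95.4, 91.7 and 214, against 206, 248 and 224. In all 4 genes the third treated library was outside the range of the other treated ones.

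Other gene groups also differed between the treated N2 libraries. The summed level of the 12 moulting genes was 174644 and 175979 in the libraries of replicates 1 and 2 and 85489 in that of replicate 3, against 101600 to 103760 in untreated N2. Of these sums, sqt-3 held 55351, 57744 and 44493 in replicates 1, 2 and 3, against 63719 to 67316 in untreated N2. The cuticle genes noah-1 (ratio 2.72) and noah-2 (2.60) were called higher with vitamin C in N2, and their log2 differences were 1.30 and 1.26 with and 1.79 and 1.71 without the library that stood apart, called in both cases. The time point within the L4 stage is not recorded for single libraries, and its part in the member results was not tested.

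The vitamin C treated mutant was also compared with untreated N2, which shares the N2 libraries of the first comparison and the treated mutant libraries of the second. Here 8 members were higher and 6 lower, where 1.02% and 2.68% of all genes were called, with a median log2 difference of 0.15 over the members and 0.01 over all genes. Without the library that stood apart, 10 were higher, with clec-65 and clec-66 added, and 6 lower, where 1.32% and 2.86% of all genes were. Leaving out untreated N2 replicate 2 or 3, or treated mutant replicate 1 or 2, gave 9 calls in place of 14.

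The called member that differed most was clec-101, with 242, 285 and 251 in untreated N2 and 14.1, 23.5 and 18.7 in the treated mutant. The N2 mean was 13.8 times the treated mutant mean (log2 difference -3.74, SE 0.57, adjusted p = 0.00046, limma). It was also below untreated N2 in vitamin C treated N2 and in the untreated mutant, where the counts were 75.1, 71.3 and 80.5. A member under the read minimum, clec-247 (Y51A2A.1), differed more, with 110.2, 138 and 125 in untreated N2 and 2.23, 2.77 and 5.09 in the treated mutant, and was named because of these values. The other called lower were clec-228, clec-220, clec-59, clec-199 and clec-234, whose N2 means were 4.04, 3.14, 3.09, 2.55 and 2.27 times the treated mutant means. In the treated mutant clec-220 had 65.5, 67.8 and 76.3, clec-59 had 405, 457 and 447, and clec-199 had 125, 94.1 and 105. The call of clec-199 was lost without any 1 of these 6 libraries.

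On the raised side, clec-4 had 887, 923 and 866 in the treated mutant, 5.44 times the N2 mean, with an adjusted p of 0.0085 (limma) and a call that was lost in 13 of the 26 alternatives, which included edgeR, DESeq2 and leaving out any 1 of the untreated N2 or the mutant libraries. The counts of clec-75 were 39, 29.2 and 49 in N2 and 159, 168 and 162 in the treated mutant, a ratio of 4.17. This gene, in the cluster of clec-67, was higher in the treated than in the untreated mutant, unlike its neighbours clec-71, clec-174 and clec-72. With it, 3 of the 8 members of the cluster had positive vitamin C differences in the mutant. The log2 differences were 1.06 for clec-75, 1.09 for clec-70, which has few reads, and 0.14 for clec-67.

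The counts of clec-42 were 205, 210.4 and 242 in the treated mutant, a ratio of 2.70 to untreated N2. For clec-265 (M02F4.7) they were 1001, 899 and 936 in N2 and 2350.0, 2341 and 2312 in the treated mutant, a ratio of 2.47. For clec-64 (F35C5.7) they were 98.1, 92.8 and 113 in N2 and 226, 216 and 267 in the treated mutant, a ratio of 2.33. None of these 3 genes was called between the mutant with and without vitamin C, where the log2 differences were -0.46, 0.18 and -0.02. The others were clec-41, clec-85 and clec-186, with ratios from 2.03 to 2.32, and their calls were lost in 4, 12 and 6 of the 26 alternatives. For clec-85 and clec-186 these included leaving out any 1 of the untreated N2 or treated mutant libraries, and for clec-41 they were untreated N2 replicates 2 and 3 and treated mutant replicates 1 and 2.

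Whether vitamin C moved a member differently in the strains was tested with an interaction term. A member was called with an adjusted p under 0.01, vitamin C changes that lay at least 1 log2 unit apart, and a mean above the same minimum in any group. By this rule 9 members had a more negative change in the mutant and 3 a more positive one, where 2.12% and 4.02% of all genes were called. The median was -0.28 over the members and 0.01 over all genes. Without the library that stood apart, 10 were negative and 9 positive, where 3.44% and 4.41% of all genes were called, with a member median of -0.06, so the tilt of the family in this test depended on that library.

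The most negative interaction among the called members was that of clec-71. Its counts were 132, 143 and 112 without and 216, 181 and 106 with vitamin C in N2, and 282, 281 and 284 without and 114, 101.1 and 89.0 with vitamin C in the mutant. The log2 difference between the vitamin C changes was -1.80 (SE 0.31, adjusted p = 0.0012, limma). It was -2.09 when the third treated N2 library was left out. The next called was clec-42 at -1.69, with a rise in N2 and the counts 341, 280.2 and 288 without and 205, 210.4 and 242 with vitamin C in the mutant.

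Neighbours of clec-71 followed among the called members. For clec-174 (Y46C8AL.2) the counts were 176, 175 and 217 without and 327, 353 and 345 with vitamin C in N2, and 402, 435 and 510.0 without and 294, 248 and 329.8 with it in the mutant. For clec-72 (Y46C8AL.5) they were 375, 347 and 442 without and 478, 556 and 480.1 with vitamin C in N2, and 859, 814 and 842 without and 466, 459.7 and 404 with it in the mutant. The interactions were -1.48 and -1.30, and in both genes the third treated N2 library was close to its group.

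For clec-225 the interaction was -1.20, with 739, 740.1 and 780.4 without and 556, 608 and 611 with vitamin C in the mutant. The remaining negative ones called were clec-52 and clec-49 (-1.15 each), clec-10 (-1.09) and clec-1 (-1.0). The call of clec-10 was lost without the library that stood apart (-0.97), and that of clec-1 lay at the required size and was lost in 14 of its 25 alternatives, which included leaving out each library but untreated N2 replicate 3 and treated N2 replicate 3. Among members under the read minimum, clec-82 had the most negative interaction, at -2.30 with and -2.39 without the library that stood apart, and was named because of it.

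On the positive side, the 3 called genes were low in the untreated mutant. The untreated mutant enters the interaction with a minus sign, so low values there are partly built in. The uncalled clec-70, clec-99, clec-241 and clec-158, all under the read minimum, had values of up to 2.84. The interaction was 2.19 for clec-228 (SE 0.32, adjusted p = 0.0004, limma), 2.18 for clec-234 and 1.67 for clec-59. Vitamin C moved clec-228 and clec-59 down in N2, as given above, and clec-234 from 477, 472 and 486 to 289, 312 and 205 in N2. In the mutant clec-228 and clec-234 moved up, while the log2 difference of clec-59 was 0.21 and not called. The 3 called interactions were 1.83, 1.99 and 1.62 without the library that stood apart.

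Further interactions were called only without that library, for clec-26, clec-180 and clec-220 among the named members and for clec-8, clec-19, clec-87, clec-88 and clec-145, which were named after their values were seen. The interaction of clec-180 was -1.12 with the library (adjusted p = 0.087, limma) and -1.65 without it. For the other 5 the values without the library ran from 1.13 (clec-8) to 1.85 (clec-19). In each of these 5 genes the first and second treated N2 libraries were below every untreated N2 library, and the third was not.

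**Figure D5:**
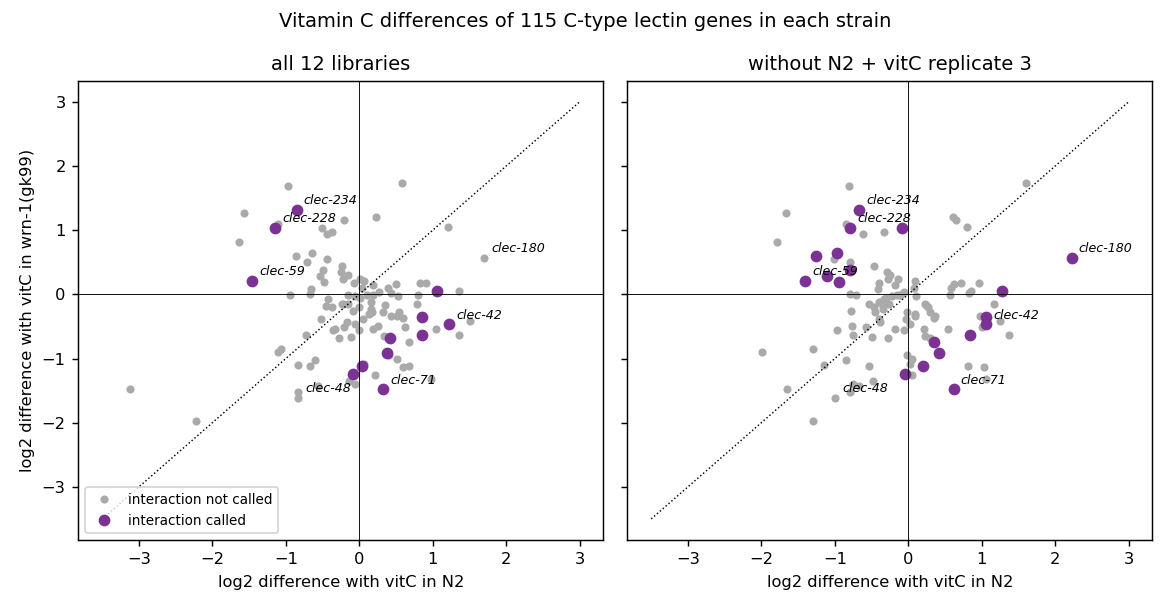
Log2 difference with vitamin C in N2 (horizontal axis) and in wrn-1(gk99) (vertical axis) for the 115 members, with all 12 libraries (left) and without the library labelled vitamin C treated N2 replicate 3 (right), with members called in the interaction test in purple and a dotted line of equal change. The called members number 12 on the left and 19 on the right, and clec-180 moves from 1.69 to 2.23 on the horizontal axis.

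Across the 115 members, the vitamin C differences of the strains, which share no library, had a Pearson correlation of -0.03 (Spearman -0.14), and of 0.02 (Spearman -0.06) without the third treated N2 library. These correlations are across genes, which share libraries and are not independent, and are given as a description. Both differences were positive in 16 members and both negative in 34, and they had opposite signs in the other 65. Without the third treated N2 library these counts were 14, 41 and 60. Neither the correlations nor these counts were computed over all genes tested, so they do not show whether the family differs from other genes.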

How the data were processed

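RNA of whole L4 worms was sequenced from 12 libraries, 3 for each of 4 groups. The authors made TruSeq libraries, aligned the reads to ce10 with TopHat and the Ensembl annotation, counted reads per gene with htseq-count and divided each library by its DESeq size factor (versions, counting mode and strand setting are not given in the sources used here). Each deposited signal is thus a normalized count, and 0 value columns were left without a sample. In every column 100% of values above 0 were, within 0.01, multiples of its smallest one, so reads were recovered for the count tools and for depth (13446257 to 34234211 reads per library).

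The tests used R 4.3.3 and limma 3.58.1 (lmFit, eBayes with trend) on log2(normalized count + 1) for the 14352 genes averaging 10 or more, over 4 groups without covariates, with Benjamini-Hochberg adjustment over all genes tested. Fold changes on this scale understate those of low genes. A call required an adjusted p under 0.01, one group mean at least 2 times the other, and the higher of them above 145, the minimum in the study's lists. edgeR 4.0.16 and DESeq2 1.42.0 on recovered reads, other scalings, floors and pseudocounts, a replicate block and each library left out were alternatives. The code was tested on simulated data. Replicates are numbered in the labels and are biological in the study's terms.

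Named were members called in any comparison, the 5 with the highest mean, and a list known from infection, 38 genes in all. Every library is given for the 5 called members at either end of the ratios. Others are said to have been named after their values were seen. Members and lists were chosen with earlier results of these data known. Replicate numbers were not used as pairs in the main fit. The correlation of deviations exceeded 0.1 in 5 of 18 pairs of libraries with the same number. Its median was 0.076 for these pairs and -0.036 for the others. Whether libraries with the same number share an effect was not tested. Neighbours, exon lengths and chromosomes come from WBcel235, which placed 114 of 115 members. It is not the build of the files, so no coordinates are given, and sequences were not used here.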

Additional observations from a re-analysis of the deposited data

Results flagged for a closer look

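For 12 members the interaction test found that vitamin C moved them differently in wrn-1(gk99) and N2. The difference, as the change in wrn-1(gk99) minus that in N2 on the log2 scale, was -1.80 for clec-71, -1.69 for clec-42, -1.48 for clec-174, -1.30 for clec-72, -1.20 for clec-225, -1.15 for clec-52, -1.15 for clec-49, -1.09 for clec-10 and -1.0 for clec-1. It was 1.67 for clec-59, 2.18 for clec-234 and 2.19 for clec-228. Without the library labelled vitamin C treated N2 replicate 3, which stood apart from its group, these values were -2.09, -1.53, -1.48, -1.34, -1.41, -1.32, -1.20, -0.97, -1.22, 1.62, 1.99 and 1.83 in the same order, and only clec-10 was no longer called. Among all 14352 genes, 4.02% had a more positive and 2.12% a more negative change in the mutant by this rule.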

How the results depend on the processing

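Counts of members called in the 5 tests were 26, 7, 5, 14 and 12 for wrn-1(gk99) against N2, vitamin C in wrn-1(gk99), vitamin C in N2, treated wrn-1(gk99) against untreated N2 and the interaction. With no minimum group mean they were 47, 14, 10, 23 and 23. With only the groups compared in the fit, 1 member was called for vitamin C in N2, and the interaction has no such value because it uses all 4 groups. Leaving out each library in turn gave 24 to 28, 5 to 10, 3 to 8, 9 to 16 and 11 to 19, where the 8 and the 19 came without vitamin C treated N2 replicate 3, the 3 without any 1 of the untreated N2 libraries, and the 9 without untreated N2 replicate 2 or 3 or treated mutant replicate 1 or 2. With the replicate block, which the main fit left out, the counts were 27, 7, 5, 14 and 12. Scaling to equal totals moved the median of all genes to 0.17 for wrn-1(gk99) against N2 and to 0.19 for the treated mutant against N2, gave 30 members in the first (24 higher and 6 lower), with a member median of 0.70, and gave 4 higher and 1 lower for vitamin C in N2 in place of 3 and 2. Of 4897 pairs of a named member, a comparison and an alternative, 4733 kept their side of the threshold, 100 lost and 64 gained a call. Among pairs called in the main fit or the alternative, 0 reversed in sign. Signs of pairs called in neither were not counted, and some did change. For vitamin C in N2, clec-4 had a log2 difference of 0.26 in the main fit and as low as -0.76 in the alternatives. Members with few reads have the least precise ratios.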
